A study of Mus musculus with 18 samples.

Results

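The miR-506 superfamily is a set of microRNAs (miRNAs) encoded on the X chromosome and known mainly from the testis. Its members were taken by name from the known miRNAs counted in mouse sperm: every id numbered miR-201, miR-463, miR-465, miR-470, miR-471, miR-509, miR-547, miR-741, miR-742, miR-743, miR-871, miR-878, miR-880, miR-881 or miR-883, with any letter and arm. The rule found 39 ids, each 1 arm of a hairpin, of 1739 known miRNA ids. They came from 20 precursors of 1009. A precursor here is a hairpin name, with its -5p and -3p arms summed.

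Small RNA was sequenced from sperm of ICR mice, an outbred strain. F0 NHS males received the irritant gases NH3 (ammonia) and H2S (hydrogen sulphide). Treatment began at 3 weeks of age and lasted 5 weeks, and the males were then mated with normal females. F0 Con males were their controls. F1 NHS males were the sons of F0 NHS males, F1 Con males were the control group of that generation, and neither was treated; F1 males were mated at 8 weeks of age. F2 NHS and F2 Con males were the next generation of each line and were not treated. Each of the 6 groups had 3 libraries, and the labels give neither the number of mice behind a library nor the age at which sperm was taken. The known miRNAs of F1 NHS replicates 1 and 3 were not analysed here, because their lists end before the miRNAs. Hence 16 libraries remained, and F1 NHS is represented by replicate 2 alone. The labels do not say that replicates are separate animals, so every p-value measures the spread between libraries, which may be technical.

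As background, genes of this family lie in a gene-poor stretch of the X chromosome between Slitrk2 and Fmr1, and the family has changed fast in sequence among mammals. In the mouse its miRNAs are abundant in germ cells of the testis and in Sertoli cells, the somatic cells that nurse them. Many of them stay active through male meiosis, when most genes of the X chromosome are silenced. Mice that lack members of the family have been used to study sperm production, sperm competition and, for miR-465, the sex ratio of litters. Like other miRNAs, they pair with messenger RNAs mainly through the seed, bases 2 to 8 of the mature strand, and reduce the output of those messages.

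All 39 ids matched a mature miRNA of RefSeq (build GRCm38.p6, the same assembly as mm10, which the submitters' processing notes name). The 22 RefSeq hairpins behind them were all on the minus strand of chromosome X, in 2 blocks. The larger block held 19 hairpins in 62.4 kb (chrX:66776757-66839125) and ran from miR-743a to miR-465a. The smaller one held miR-201, miR-547 and miR-509 in 22.1 kb (chrX:67988096-68010179). Slitrk2 lies on one side of both blocks (chrX:66649318-66661393) and Fmr1 on the other (chrX:68678541-68717963). No hairpin overlapped another gene of the GENCODE M21 annotation.

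The sequences below are those of the 8 most abundant arms and of the arms that share a seed with one of them. They are written 5′ to 3′ from RefSeq, with the seed in capitals. Together the 39 arms carried 31 different seeds, of which 5 were shared. Among known miRNAs with a RefSeq sequence, none outside the superfamily carried a seed shown here.
miR-465c-3p: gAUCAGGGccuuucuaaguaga
miR-465a-3p: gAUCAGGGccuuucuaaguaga
miR-465b-3p: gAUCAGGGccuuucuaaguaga
miR-465c-5p: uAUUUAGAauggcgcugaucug
miR-465b-5p: uAUUUAGAauggugcugaucug
miR-465a-5p: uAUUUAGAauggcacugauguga
miR-465d-5p: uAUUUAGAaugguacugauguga
miR-471-3p: uGAAAGGUgccauacuauguau
miR-871-3p: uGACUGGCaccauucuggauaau
miR-871-5p: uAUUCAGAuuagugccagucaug
miR-743a-5p: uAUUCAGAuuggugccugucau
miR-470-5p: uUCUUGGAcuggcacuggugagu

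The -3p arms of miR-465a, miR-465b and miR-465c are the same molecule, so reads of that sequence cannot be assigned to 1 of the 3 names. Their -5p arms share a seed and differ behind it. Counted from the 5′ end of miR-465c-5p, miR-465b-5p differs by C13U, miR-465a-5p by G14A and C20G, and miR-465d-5p by C13U, G14A and C20G. miR-465a-5p and miR-465d-5p also end in a further A, with 23 bases against 22. miR-871-5p and miR-743a-5p come from different hairpins of the larger block and share the seed AUUCAGA.

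Levels are given on 3 scales. TPM is the deposited value, reads per 1000000 reads of the whole library. The percent of miRNA reads sets a count against all known miRNA reads of its library. TMM-scaled CPM comes from the fit and gives reads per 1000000 of a library size adjusted so that most tested miRNAs are level between libraries. The scales part where the miRNA share of a library differs, and it ranged from 13.3% to 57.4%. That share was 36.4% to 52.6% in F0 NHS, 40.6% to 57.4% in F0 Con, 13.3% to 32.6% in F1 Con, 31.2% to 38.7% in F2 NHS and 20.3% to 32.3% in F2 Con.

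The 16 libraries held 18072900 to 29430555 reads, of which 3408722 to 13212381 were known miRNA reads. At the smallest total, 1 TPM stands for 18.1 reads. Sperm RNA can hold RNA of other cells. The germ cell miRNAs miR-34b, miR-34c, miR-449a and miR-449c had reads in every library. The smooth muscle list (miR-143 and miR-145a) took 3.43% to 41.8% of miRNA reads, with the highest value in F0 Con replicate 2, and the red blood cell list took 2.17% to 15.5%. In 6 libraries (F0 NHS replicate 3, F0 Con replicate 2, F1 NHS replicate 2, F2 NHS replicate 1, and F2 Con replicates 1 and 2) a predicted hairpin with the sequence of a tRNA-Ala gene exceeded 1000 TPM. These stand apart from the other 10 libraries. The summed shares and the leading differences between Con generations are also given without them.

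The superfamily took a modest share of miRNA reads, and that share was smallest in F0. It was 1.80%, 2.33% and 0.784% in F0 NHS libraries, against 2.14%, 0.652% and 1.14% in F0 Con libraries. It was 3.94% in the F1 NHS library, against 4.18%, 5.21% and 5.58% in F1 Con libraries. In F2 it was 4.10%, 1.89% and 2.70% in NHS libraries, against 4.52%, 5.20% and 5.03% in Con libraries. The F0 groups overlapped, while all F2 NHS libraries were below all F2 Con libraries and the F1 NHS library was below all F1 Con libraries. The F1 Con and F2 Con libraries were all above the F0 Con libraries. Wilson intervals (95%) of these shares were at most 0.0455 percentage points wide and cover counting error only.

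The group means were 1.64% ± 0.787 in F0 NHS and 1.31% ± 0.757 in F0 Con (SD, n = 3 each), a ratio of 1.25. In F2 they were 2.90% ± 1.11 in NHS and 4.92% ± 0.354 in Con (SD, n = 3 each), a ratio of 0.589. F1 Con averaged 4.99% ± 0.726 (SD, n = 3), 3.81 times F0 Con, and F2 Con was 3.75 times F0 Con. No p is given for these sums, since the members were chosen with earlier results of these data known. Without the 6 libraries high in the tRNA-Ala hairpin the ratio of F2 NHS to F2 Con was 0.457, with a lone F2 Con library. It was 3.04 for F1 Con over F0 Con and 3.07 for F2 Con over F0 Con.

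The picture on the TPM scale was less clear. The sum was 7534, 8485 and 4128 TPM in F0 NHS, against 11070, 2644 and 6556 TPM in F0 Con. It was 15101 TPM in the F1 NHS library, against 5569, 9000 and 18177 TPM in F1 Con. It was 12785, 6282 and 10460 TPM in F2 NHS, against 14602, 10540 and 14939 TPM in F2 Con. On that scale the groups overlapped in each of these comparisons and also in F1 Con and F2 Con against F0 Con, and the ratio of F1 NHS to F1 Con turned to 1.38. The ratios became 1.62 for F1 Con over F0 Con, 1.98 for F2 Con over F0 Con and 0.737 for F2 NHS over F2 Con.

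**Figure D1:**
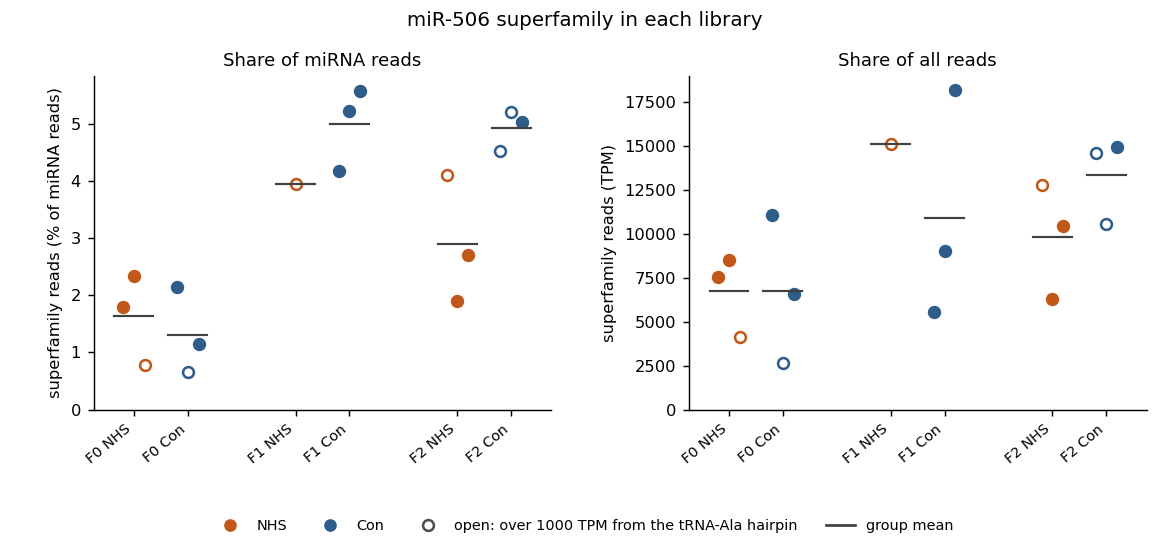
Summed reads of the 39 members in each of the 16 libraries, as a percent of known miRNA reads (left) and in TPM (right), by group, with each group's mean as a line. On the left F1 Con and F2 Con libraries (4.18% to 5.58%) lie above all F0 libraries (0.652% to 2.33%), and on the right those groups overlap. Open points are the 6 libraries with over 1000 TPM of the tRNA-Ala hairpin.

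miR-465 dominated these reads. Summed over its names a, b and c, it took 38.1% to 58.8% of the superfamily reads of a library, with a mean of 50.5%. miR-465c alone averaged 35.9% and was the leading precursor in all 16 libraries. It was followed by miR-871 at 12.3%, miR-470 at 11.1%, miR-471 at 9.23%, miR-465b at 7.88% and miR-465a at 6.77%. The other 14 precursors each averaged at most 3.50%. Among all 1009 precursors miR-465c ranked 23rd by mean TPM, and miR-871, miR-470 and miR-471 ranked 47th, 55th and 57th. miR-470 has been shown in mouse stem cells to target pluripotency factors, and miR-471 in Sertoli cells to act on the uptake of dead germ cells.

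At the other end, miR-201 averaged 4.77 TPM and miR-547 1.71 TPM, and miR-509 had 2 reads in all, both in 1 library. Ranked by single arm, miR-465c-3p (1798 TPM on average) and miR-465c-5p (1786 TPM) led. miR-471-3p came next at 935 TPM, then miR-465a-3p at 721 TPM, miR-465b-3p at 702 TPM, miR-871-3p at 659 TPM, miR-871-5p at 634 TPM and miR-470-5p at 620 TPM.

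Library by library, the leading arms swung more than their means show. miR-465c-3p stood at 890, 635 and 1600 TPM in F0 NHS and 3664, 325 and 264 TPM in F0 Con, at 4211 TPM in F1 NHS and 525, 2328 and 919 TPM in F1 Con, and at 1957, 497 and 588 TPM in F2 NHS and 4935, 1133 and 4298 TPM in F2 Con. miR-465c-5p stood at 1053, 1787 and 51.3 TPM in F0 NHS and 411, 826 and 1510 TPM in F0 Con, at 926 TPM in F1 NHS and 1546, 553 and 7746 TPM in F1 Con, and at 2969, 1558 and 3849 TPM in F2 NHS and 143.5, 3263 and 392 TPM in F2 Con. In F0 NHS replicate 3 and F2 Con replicates 1 and 3, miR-465c-3p was high and miR-465c-5p low. The sum of the 3 names of the shared -3p sequence was 2561, 2286 and 1905 TPM in F0 NHS and 5999, 435 and 1549 TPM in F0 Con, 7161 TPM in F1 NHS and 1181, 2857 and 1988 TPM in F1 Con, and 3911, 1448 and 1446 TPM in F2 NHS and 6990, 2400 and 7417 TPM in F2 Con. In that sum F2 NHS replicate 1 lay above F2 Con replicate 2, so the F2 groups overlapped.

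Single names of that sequence were as scattered. miR-465a-3p stood at 1259, 391 and 56.3 TPM in F0 NHS and 901, 88.5 and 276 TPM in F0 Con, at 1691 TPM in F1 NHS and 62.7, 110 and 500.8 TPM in F1 Con, and at 1319, 283 and 629 TPM in F2 NHS and 1007, 697 and 2262 TPM in F2 Con. miR-465b-3p stood at 411, 1260 and 249 TPM in F0 NHS and 1435, 21.9 and 1009 TPM in F0 Con, at 1258 TPM in F1 NHS and 594, 419 and 568 TPM in F1 Con, and at 636, 668 and 228 TPM in F2 NHS and 1047, 570 and 858 TPM in F2 Con. All NHS and Con groups of 3 libraries overlapped for both names.

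miR-471-3p stood at 717, 933 and 168 TPM in F0 NHS and 987, 170 and 908 TPM in F0 Con, at 1222 TPM in F1 NHS and 450.6, 771 and 1676 TPM in F1 Con, and at 1252, 321 and 913 TPM in F2 NHS and 1810, 931 and 1725 TPM in F2 Con. Its lowest values, in F0 NHS replicate 3 and F0 Con replicate 2, were in libraries high in the tRNA-Ala hairpin. So was its highest value, in F2 Con replicate 1. miR-871-3p stood at 290, 203 and 249 TPM in F0 NHS and 552, 80.7 and 271 TPM in F0 Con, at 1181 TPM in F1 NHS and 397, 612 and 1261 TPM in F1 Con, and at 688, 827 and 1467 TPM in F2 NHS and 1088, 1112 and 269 TPM in F2 Con. miR-871-5p stood at 153, 183 and 274 TPM in F0 NHS and 377, 165 and 42.2 TPM in F0 Con, at 805 TPM in F1 NHS and 192, 1462 and 2170 TPM in F1 Con, and at 905, 272 and 174 TPM in F2 NHS and 1246, 313 and 1407 TPM in F2 Con. For miR-871-3p all F2 NHS libraries were above all F0 NHS libraries, while for miR-871-5p they overlapped. How many of all arms separate like miR-871-3p was not counted. Among all tested precursors, on TMM-scaled CPM, 8.46% were higher without overlap in F2 NHS than in F0 NHS. miR-470-5p stood at 1114, 1210 and 342 TPM in F0 NHS and 345, 110 and 24.3 TPM in F0 Con, at 574 TPM in F1 NHS and 311, 1690 and 104.3 TPM in F1 Con, and at 681, 496 and 193 TPM in F2 NHS and 601, 779 and 1347 TPM in F2 Con, with overlap between NHS and Con in both F0 and F2.

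In all, 35 of 39 arms and 19 of 20 precursors passed the filter of 1 CPM in 3 libraries. The others were miR-465d-5p, miR-509-3p, miR-547-5p and miR-880-5p, and the precursor miR-509, with at most 45 reads each.

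**Figure D2:**
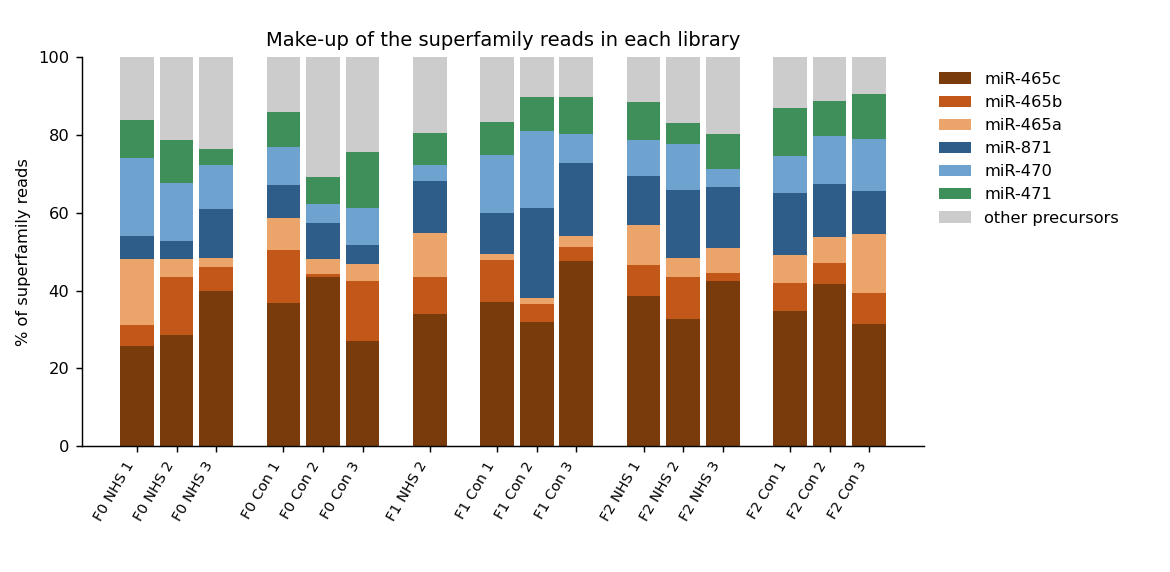
Share of the superfamily reads taken by miR-465c, miR-465b, miR-465a, miR-871, miR-470, miR-471 and the other 14 precursors in each library (bars, summing to 100%). The miR-465 names together take 38.1% to 58.8%, and miR-871 takes 4.55% to 12.7% in F0 libraries and 10.6% to 23.0% in F1 and F2 libraries.

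How the reads of the shared miR-465 -3p sequence were split over its names varied between libraries. Of the 3 names, miR-465c-3p held 17.0% to 84.0% of them, miR-465b-3p 5.02% to 65.2% and miR-465a-3p 2.96% to 49.2%. The name with most reads was miR-465c-3p in 10 libraries, miR-465b-3p in 4 and miR-465a-3p in 2. Libraries of 1 group disagreed too: in F0 Con, miR-465b-3p held 23.9%, 5.02% and 65.2%. Because the molecule is the same, values of the single -3p names describe the authors' assignment of reads as much as a level, and the sum of the names is the quantity that can be compared.

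The arm in excess was fixed for some precursors and not for others. The -3p arm was ahead in all 16 libraries for miR-465a, miR-465b, miR-471, miR-547, miR-741, miR-743a, miR-743b, miR-880 and miR-881. For miR-471 it held 92.9% to 99.6% of the reads. For miR-465c the -3p share ran from 10.6% to 97.2% and was above 50% in 6 libraries. For miR-470 it ran from 4.15% to 96.2%, also with 6 libraries above 50%, and for miR-871 from 16.1% to 89.4%, with 9 above 50%. Replicates of a group differed as widely: in F2 Con the -3p share of miR-465c was 97.2%, 25.8% and 91.7%, and in F0 Con that of miR-470 was 67.6%, 14.7% and 96.2%. The shares of miR-465a, miR-465b and miR-465c also depend on how reads of their common -3p sequence were assigned to names. For these names an arm share need not describe the arm use of the hairpin. Wilson intervals (95%) of arm shares of the 6 most abundant precursors were at most 4.28 percentage points wide.

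Such switching was also seen outside the superfamily. Of the 16 members with both arms past the filter, 9 (56.3%) had each arm ahead in at least 1 library, against 172 (76.1%) of 226 other precursors. Sums of both arms were steadier than the arms: the SD within groups of the log2 level was smaller for the sum than for either arm in 13 of the 16 members and in 157 of the 226 others. For miR-465c, with -3p reads as the authors assigned them, the SD was 1.31 for -3p, 1.89 for -5p and 0.72 for the sum. Tests are therefore given for precursors first.

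**Figure D3:**
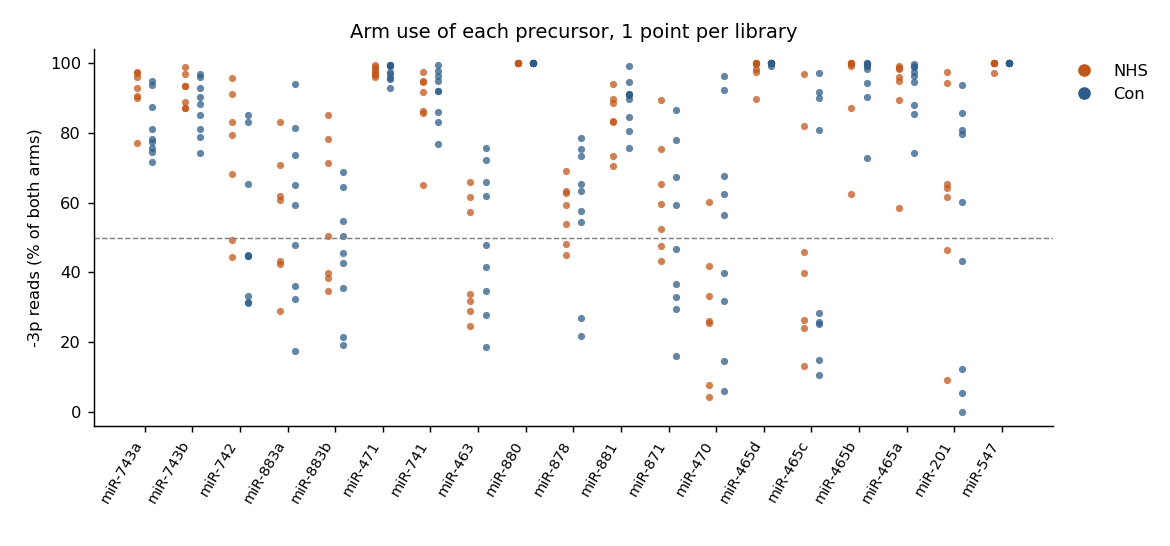
Share of -3p reads among both arms of each of 19 precursors, in the order of their first hairpin along the X chromosome, with 1 point per library (NHS left, Con right of each tick). miR-471 stays between 92.9% and 99.6%, while miR-465c covers 10.6% to 97.2% and miR-470 4.15% to 96.2%. The -3p reads of miR-465a, miR-465b and miR-465c are of 1 shared sequence, split over the names as the authors assigned them.

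The F0 comparison asks how the exposed males' own sperm differed from that of controls. No member changed past the test. edgeR called 0 of 19 precursors, with 0 at an unadjusted p under 0.05, and 0 of 35 arms, with 1; among all known miRNAs it called 0.0% of 461 precursors, with 39 at an unadjusted p under 0.05, and 0.0% of 735 arms, with 45. DESeq2, which called 0.651% of all precursors and 0.136% of all arms, called 0 members at either level. In log2 terms 9 precursors were above and 10 below 0, with a median of -0.02, against 0.05 for all 461 precursors.

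The smallest p-values among precursors in F0 were those of miR-547, miR-470 and miR-881. miR-881 had 74.0, 73.7 and 62.8 TMM-scaled CPM in F0 NHS libraries, against 128, 128 and 115 in F0 Con libraries. The groups did not overlap and were close within themselves, at a log2 fold change of -0.82 (SE 0.58, edgeR adjusted p = 0.605). miR-547, a rare member, had 0.859, 0.584 and 0.970 in F0 NHS, against 2.06, 1.99 and 2.42 in F0 Con (log2 fold change -1.42, SE 0.72, edgeR adjusted p = 0.534). These 2 were the members whose F0 libraries did not overlap with NHS lower, against 8.89% of all tested precursors, and 0 did so with NHS higher, against 11.3%. miR-470 had 1383, 904 and 304 in F0 NHS, against 790, 136 and 384 in F0 Con, with overlap (log2 fold change 0.98, SE 0.66, edgeR adjusted p = 0.592).

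Among arms in F0, miR-470-5p had 972, 1104 and 208 TMM-scaled CPM in NHS libraries, against 265, 107 and 15.7 in Con libraries. Its log2 fold change was 2.56 (SE 1.15, edgeR adjusted p = 0.735). Its partner miR-470-3p lay at -1.06 (SE 1.04, edgeR adjusted p = 0.792). The arms thus pointed opposite ways, neither past the test. miR-465b-5p, at 0.126, 0.217 and 1.15 in F0 NHS and 66.5, 0.369 and 0.242 in F0 Con, had a log2 fold change of -5.47 (SE 2.87, edgeR adjusted p = 0.735) that rested on F0 Con replicate 1; without that library it was 0.61. miR-547-3p, nearly all of miR-547, had 0.817, 0.744 and 0.893 in F0 NHS, against 2.14, 1.85 and 2.59 in F0 Con (log2 fold change -1.42, SE 0.80, edgeR adjusted p = 0.735).

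In F1 the sole NHS library allows only a rough comparison, in which it is assumed to vary like the other groups. edgeR called 0 of 19 precursors and 0 of 35 arms, with 1 of each at an unadjusted p under 0.05. Over all known miRNAs it called 0.0% at both levels, with 45 precursors and 44 arms at an unadjusted p under 0.05, and DESeq2, which called 1.3% of all precursors and 0.952% of all arms, called 0 members. miR-881 had 607 TMM-scaled CPM in the F1 NHS library, against 257, 80.1 and 271 in F1 Con. miR-871 had 2147 in the F1 NHS library, against 1105, 3421 and 3592 in F1 Con.

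The F2 comparison asks whether sperm of grandsons of exposed males differed from that of F2 controls. Most members were lower in F2 NHS, and none passed the edgeR test. edgeR called 0 of 19 precursors, with 0 at an unadjusted p under 0.05, and 0 of 35 arms, with 1; over all known miRNAs it called 0.0% at both levels, with 68 precursors and 80 arms at an unadjusted p under 0.05. Without F2 NHS replicate 1 it called 17 of all precursors and 0 members. DESeq2 called 0 member precursors and 1 member arm, against 6.72% of all precursors and 4.08% of all arms. Of the 19 precursors 15 were below 0 on the log2 scale, with a median of -0.39, against -0.10 for all 461 precursors. With library totals as the scale, 11 were below 0, with medians of -0.16 for the members and 0.23 for all.

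miR-470 had the smallest p among precursors in F2. It had 1343, 674 and 393 TMM-scaled CPM in NHS libraries, against 1517, 1795 and 2143 in Con libraries (log2 fold change -1.18, SE 0.66, edgeR adjusted p = 0.429). It was the only member precursor whose F2 libraries did not overlap with NHS lower, against 9.11% of all tested precursors; 0 did so with NHS higher, against 9.54%. miR-463 (log2 fold change -0.98, SE 0.61) and miR-471 (-1.05, SE 0.68) followed, with edgeR adjusted p-values of 0.462 and 0.489. miR-463 had 150, 118 and 291 in F2 NHS, against 504, 263 and 338 in F2 Con. miR-471 had 1447, 301 and 759 in F2 NHS, against 1995, 1322 and 1876 in F2 Con, so for both 1 F2 NHS library lay among the controls. The sum of the miR-465 names a to c lay at -0.60 (SE 0.53, edgeR adjusted p = 0.634), and the shared -3p sequence alone at -1.24 (SE 0.85, edgeR adjusted p = 0.60).

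Set side by side, miR-470 lay at a log2 fold change of 0.98 in F0 and -1.18 in F2. The difference between the generations was -2.16 (SE 0.93, edgeR adjusted p = 0.237), not past the test. No member passed that test: edgeR called 0 of 19 precursors, with 1 at an unadjusted p under 0.05, and 0.0% of all 461 precursors, with 80. Without F2 NHS replicate 1 it called 30 of all precursors, and without F0 NHS replicate 3 it called 12, with 0 members in either. Per arm it called 0 of 35, with 2 at an unadjusted p under 0.05, and 0.0% of 735, with 87. DESeq2, which called 8.89% of all precursors and 4.35% of all arms, called 0 members at either level.

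The clearest arm in F2 was miR-742-3p. It had 14.3, 16.9 and 24.5 TMM-scaled CPM in F2 NHS, against 5.42, 4.55 and 3.27 in F2 Con, with no overlap (log2 fold change 2.07, SE 0.60, edgeR adjusted p = 0.288). DESeq2 called it, with a log2 fold change of 1.93 and an adjusted p of 0.0227. The partner miR-742-5p had 1.39, 4.43 and 1.08 in F2 NHS, against 11.8, 5.56 and 7.22 in F2 Con (log2 fold change -1.83, SE 0.86, edgeR adjusted p = 0.442), also with no overlap and in the opposite direction. The sum of both arms lay at 0.61 (SE 0.42, edgeR adjusted p = 0.50). The -3p share of miR-742 was 91.2%, 79.3% and 95.8% in F2 NHS libraries, against 31.4%, 45.0% and 31.2% in F2 Con libraries. In F0 it was 68.1%, 49.4% and 83.2% in NHS, against 83.3%, 44.6% and 65.3% in Con, where the groups overlapped. miR-741-5p had 18.4, 30.9 and 50.4 TMM-scaled CPM in F2 NHS, against 3.29, 17.9 and 8.23 in F2 Con, with no overlap (log2 fold change 1.76, SE 0.85, edgeR adjusted p = 0.442). The share of all arms, or of all -3p shares, that separate in this way was not counted. Of 226 other precursors, 172 had each arm ahead in at least 1 library. Among all tested precursors, with both arms summed, 9.54% separated with F2 NHS higher and 9.11% with F2 NHS lower.

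The shares of some cell type lists also differed between F2 NHS and F2 Con. The germ cell list (4 of 4 precursors listed, none at 0 in any library) took 2.65% to 3.27% of miRNA reads in F2 NHS and 5.77% to 10.9% in F2 Con. The smooth muscle list took 6.36% to 9.38% in F2 NHS and 4.08% to 9.20% in F2 Con. The epithelium list (miR-200a, miR-200b, miR-200c, miR-141, miR-429 and miR-205; 6 of 6 listed, none at 0 in any library) took 4.85%, 6.46% and 5.25% in F2 NHS, against 2.86%, 3.08% and 3.02% in F2 Con, with no overlap. The summed germ cell list was thus lower and the epithelium list higher in F2 NHS. Within the germ cell list, miR-34b lay at a log2 fold change of -1.68 and miR-34c at -1.12 (edgeR adjusted p = 0.114 and 0.193). The germ cell miRNA miR-449a went the other way, at 0.56 (edgeR adjusted p = 0.754), and miR-449c had 0.0418 to 1.57 TPM. The part of these lists in the lower F2 NHS values was not tested. In whole sperm RNA, fewer cells of a type and less RNA per cell cannot be told apart.

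The 3 Con groups show how the superfamily varied between generations with no exposure, as far as the groups differ in generation alone. miR-871 was several times higher in F1 Con and F2 Con than in F0 Con. It had 1105, 3421 and 3592 TMM-scaled CPM in F1 Con and 2558, 1975 and 1815 in F2 Con, against 689, 260 and 189 in F0 Con. Neither later group overlapped F0 Con. The log2 fold change was 2.84 for F1 Con over F0 Con (SE 0.56, edgeR adjusted p = 0.0136) and 2.48 for F2 Con over F0 Con (SE 0.56, edgeR adjusted p = 0.0260). Both comparisons share the F0 Con libraries.

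The call of miR-871 in F1 Con was lost without F0 Con replicate 2 (edgeR adjusted p = 0.0611) and without F0 Con replicate 3 (0.0596). That in F2 Con was lost without F0 Con replicate 2 (0.0872), F0 Con replicate 3 (0.0662), F2 Con replicate 1 (0.0592) or F2 Con replicate 2 (0.0548). Among the 10 libraries low in the tRNA-Ala hairpin the F1 Con value was 2.64 (edgeR adjusted p = 0.0453), and the F2 Con value, with 1 F2 Con library, was 1.99 (0.188). Over the 16 fits that each left out 1 library, the log2 fold change was 2.51 to 3.60 in F1 Con and 2.16 to 3.24 in F2 Con.

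miR-465c rose in F1 Con over F0 Con by a narrow margin. It had 3881, 4755 and 9072 TMM-scaled CPM in F1 Con and 5564, 6096 and 5077 in F2 Con, against 3018, 1214 and 1072 in F0 Con. No F1 Con or F2 Con library was as low as any F0 Con library. The log2 fold change was 1.74 for F1 Con (SE 0.52, edgeR adjusted p = 0.0492) and 1.66 for F2 Con (SE 0.51, edgeR adjusted p = 0.0539). With the names a to c summed, which removes the question of how their shared -3p reads were assigned, it was 1.43 (SE 0.54, edgeR adjusted p = 0.0858) for F1 Con and 1.57 (SE 0.54, edgeR adjusted p = 0.0696) for F2 Con, past the threshold in neither. The F1 Con call was also lost in 11 of the 16 fits that left out 1 library, with adjusted p-values up to 0.141, reached without F0 Con replicate 2. It was kept without F0 NHS replicate 3, F0 Con replicate 1, F1 NHS replicate 2, F2 NHS replicate 1 or F2 NHS replicate 2. Among the 10 libraries low in the tRNA-Ala hairpin, miR-465c lay at 1.52 in F1 Con (edgeR adjusted p = 0.106) and, with 1 F2 Con library, at 1.23 in F2 Con (0.330).

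Over all members, edgeR called 2 of 19 precursors higher in F1 Con than in F0 Con and 1 higher in F2 Con than in F0 Con. Of all 461 precursors it called 9.11% in the F1 Con comparison, 4.99% higher and 4.12% lower, and 10.2% in the F2 Con comparison, 4.77% higher and 5.42% lower. It called 0 members lower in either. DESeq2 called 5 members higher in each comparison, against 24.3% and 21.3% of all precursors called in either direction. The additions in both were miR-470 and miR-883b, with miR-878 in F1 Con, and miR-465a and miR-465c in F2 Con. For miR-465c in F2 Con, DESeq2 gave a log2 fold change of 1.64 (DESeq2 adjusted p = 0.0137). miR-470 had 1553, 2966 and 1396 TMM-scaled CPM in F1 Con and 1517, 1795 and 2143 in F2 Con, against 790, 136 and 384 in F0 Con. Neither later group overlapped F0 Con for miR-470. Its log2 fold change was 2.17 for F1 Con (SE 0.68, edgeR adjusted p = 0.0570) and 2.06 for F2 Con (SE 0.68, edgeR adjusted p = 0.0641). In the fit with the miR-465 names summed, the F1 Con value was 2.23 (SE 0.67, edgeR adjusted p = 0.0494). Among the 10 libraries low in the tRNA-Ala hairpin, miR-470 lay at 1.74 in F1 Con (edgeR adjusted p = 0.0703) and, with 1 F2 Con library, at 1.77 in F2 Con (0.169).

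Counted by libraries that do not overlap, 7 of 19 precursors were higher in F1 Con than in F0 Con, against 17.4% of all tested precursors. They were miR-465c, miR-871, miR-470, miR-471, miR-743a, miR-878 and miR-883b. In F2 Con 10 of 19 were higher than in F0 Con, against 19.7% of all. These were miR-465c, miR-871, miR-470, miR-471, miR-465a, miR-741, miR-463, miR-878, miR-881 and miR-883b. No member was lower without overlap in either comparison, against 18.4% and 17.8% of all. Between F2 Con and F1 Con, 1 member (miR-465a) was higher without overlap and 2 (miR-880 and miR-201) were lower, against 8.03% of all in each direction.

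**Figure D4:**
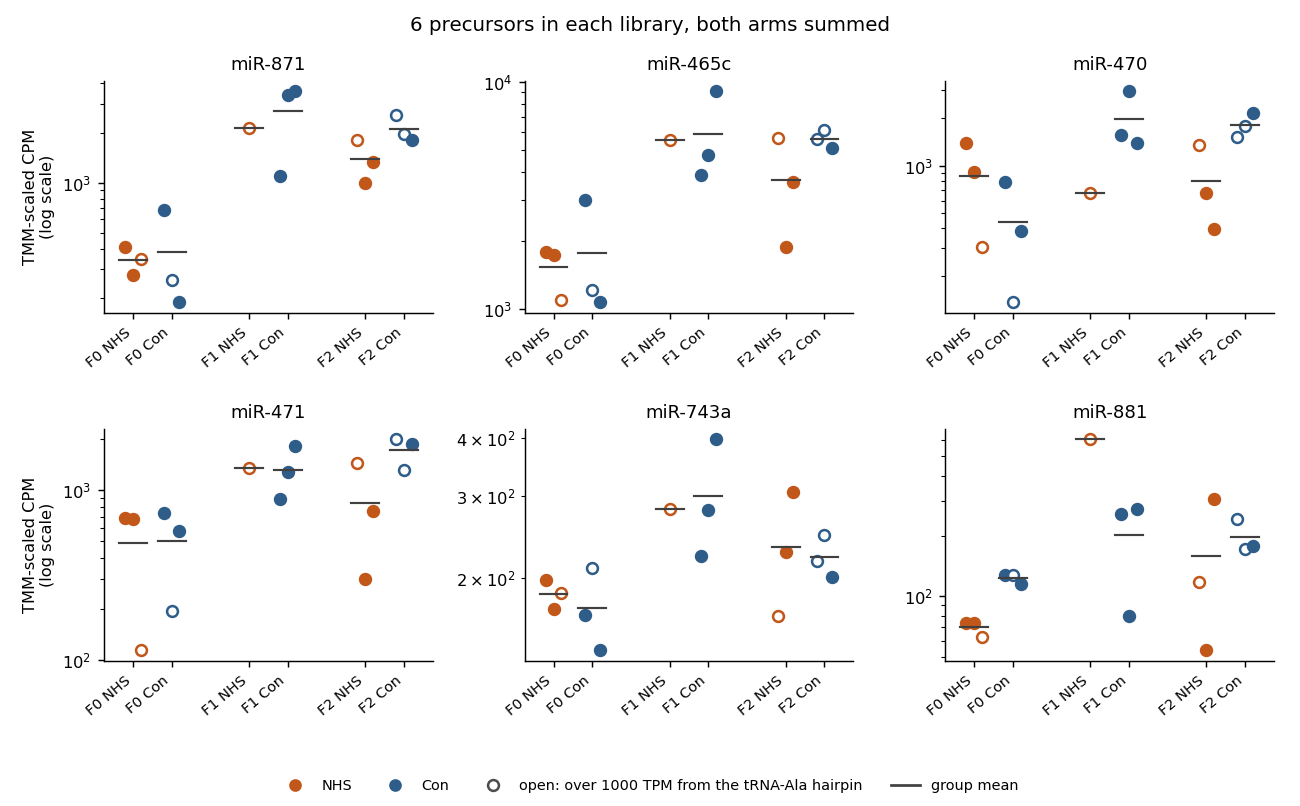
TMM-scaled CPM (log axis, a range of its own in each panel) of miR-871, miR-465c, miR-470, miR-471, miR-743a and miR-881 in each library, with the group mean as a line. miR-871 lies at 189 to 689 in F0 libraries and at 997 to 3592 in F1 and F2 libraries, while miR-743a stays between 140 and 397.

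In the exposed line, F2 was set beside F0 as a description. In F2 NHS against F0 NHS, 3 of 19 precursors were higher without overlap (miR-465c, miR-871 and miR-878), against 8.46% of all, and 0 were lower, against 7.81%. miR-871 had 1829, 997 and 1331 TMM-scaled CPM in F2 NHS, against 406, 276 and 346 in F0 NHS. miR-465c had 5657, 1865 and 3600 in F2 NHS, against 1783, 1735 and 1094 in F0 NHS. No test was run on this pair of groups.

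The difference between Con generations was uneven along the cluster. The grouping by place was made after the values were seen, and position was not tested. miR-743a, miR-743b, miR-742 and miR-883a, the 4 precursors at its Slitrk2 end, lay at log2 fold changes of 0.80, 0.13, 0.07 and 0.11 in F1 Con over F0 Con. In F2 Con over F0 Con they lay at 0.37, 0.03, -0.60 and 0.07. miR-201 and miR-547, in the smaller block, lay at -0.06 and -0.24 in F1 Con and at -0.73 and -0.25 in F2 Con. Between them, from miR-883b to miR-465a, 12 of 13 precursors were above 0 in each comparison, with miR-465a at -0.05 in F1 Con and miR-880 at -0.63 in F2 Con as the exceptions. Over the 19 members the median log2 fold change was 0.71 for F1 Con and 0.87 for F2 Con, against 0.06 and 0.03 over all 461 precursors.

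**Figure D5:**
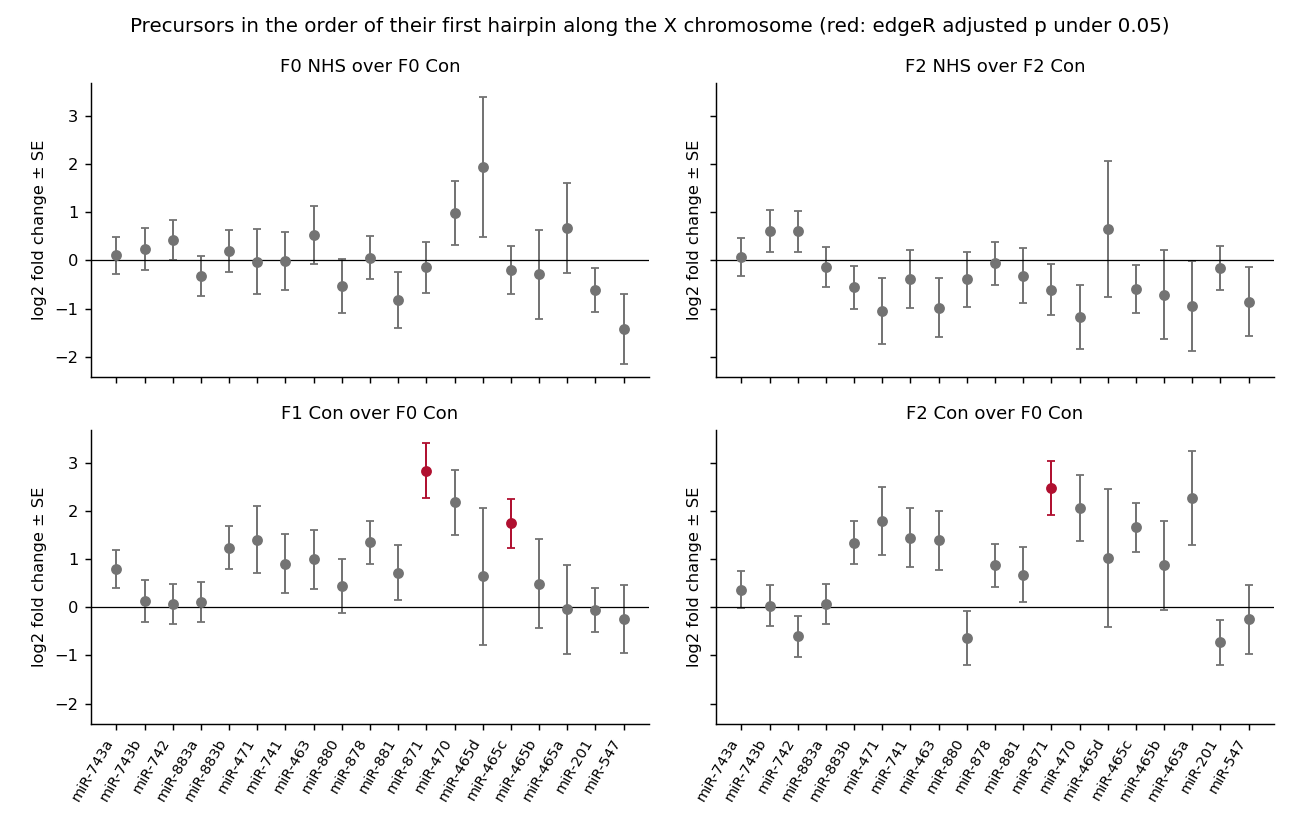
Log2 fold change with its SE for 19 precursors, in the order of their first hairpin along the X chromosome, for F0 NHS over F0 Con, F2 NHS over F2 Con, F1 Con over F0 Con and F2 Con over F0 Con (edgeR). Red points are past the threshold: miR-871 (2.84) and miR-465c (1.74) in F1 Con and miR-871 (2.48) in F2 Con.

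The scale matters for these comparisons. With library totals in place of TMM, the median of all precursors moved to -0.86 for F1 Con and -0.58 for F2 Con. The members' median moved to -0.12 and 0.30, so the members still lay above the median of all, but in F1 Con 8 of 19 lay above 0, against 16 of 19 with TMM. The split of all calls also moved, to 5 higher and 98 lower in F1 Con and to 7 higher and 45 lower in F2 Con. miR-871 then stood at 2.03 in F1 Con (edgeR adjusted p = 0.0372) and 1.87 in F2 Con (0.0641). miR-465c stood at 0.96 in F1 Con, no longer called (edgeR adjusted p = 0.255), and at 1.02 in F2 Con (0.272).

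Per arm, edgeR called 0 of 35 members in F1 Con over F0 Con, with 8 at an unadjusted p under 0.05, and 0 in F2 Con over F0 Con, with 6. Of all 735 arms it called 0.0% and 0.136%. DESeq2 called 6 members in each, against 9.25% and 11.8% of all arms. miR-743a-5p had 54.2, 64.2 and 98.5 TMM-scaled CPM in F1 Con and 38.1, 65.9 and 46.4 in F2 Con, against 21.6, 12.4 and 7.63 in F0 Con, with no overlap. Its log2 fold change was 2.38 for F1 Con (SE 0.68, edgeR adjusted p = 0.144) and 1.86 for F2 Con (SE 0.67, edgeR adjusted p = 0.171). The more abundant miR-743a-3p lay at 0.60 (SE 0.55) and -0.02 (SE 0.55). miR-871-5p, which carries the same seed as miR-743a-5p, lay at 3.45 (SE 1.02, edgeR adjusted p = 0.154) and 2.68 (SE 0.99, edgeR adjusted p = 0.171). miR-871-3p lay at 2.24 (SE 0.77, edgeR adjusted p = 0.189) and 2.06 (SE 0.76, edgeR adjusted p = 0.171), so both arms of this precursor pointed the same way. For arms named here and below as not overlapping, the share of all arms that do so was not counted. Among all tested precursors, 17.4% were higher without overlap in F1 Con over F0 Con and 19.7% in F2 Con over F0 Con.

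The other arms with the smallest p-values between Con generations were minor ones. miR-465a-5p had 44.0, 32.3 and 30.1 TMM-scaled CPM in F1 Con, against 7.98, 11.9 and 6.94 in F0 Con (log2 fold change 1.99, SE 0.67, edgeR adjusted p = 0.186). In F2 Con it had 28.3, 8.37 and 4.85, at -1.36 against F1 Con (SE 0.66, edgeR adjusted p = 0.565), so F1 Con stood above both other Con groups without overlap. miR-463-5p had 306, 202 and 221.3 in F2 Con, against 44.4, 20.2 and 65.0 in F0 Con (log2 fold change 2.49, SE 0.85, edgeR adjusted p = 0.157), with no overlap. miR-742-3p ran the other way, at 5.42, 4.55 and 3.27 in F2 Con, against 15.4, 8.12 and 17.1 in F0 Con (log2 fold change -1.62, SE 0.59, edgeR adjusted p = 0.171).

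Between F2 Con and F1 Con no member passed the test. edgeR called 0 of 19 precursors, with 1 at an unadjusted p under 0.05, and 0.0% of all 461, with 44. Per arm it called 0 of 35, with 2 at an unadjusted p under 0.05, and 0.0% of 735, with 67. DESeq2, which called 2.82% of all precursors and 3.27% of all arms, called 0 members. miR-465a had the smallest p, at 1134, 975 and 2454 TMM-scaled CPM in F2 Con, against 158, 212 and 554 in F1 Con (log2 fold change 2.30, SE 0.98, edgeR adjusted p = 0.415). The -3p sequence shared with miR-465b and miR-465c held 58.6% to 99.8% of the miR-465a reads of a library. Summed over the names the difference was 0.14 (SE 0.53, edgeR adjusted p = 0.942).

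Other members with small p-values lay lower in F2 Con. miR-880 had 57.1, 47.6 and 32.3 TMM-scaled CPM in F2 Con, against 77.6, 141.4 and 69.0 in F1 Con (log2 fold change -1.07, SE 0.57, edgeR adjusted p = 0.476), with no overlap. miR-742 had 18.5, 10.7 and 11.6 in F2 Con, against 21.8, 27.6 and 15.7 in F1 Con (log2 fold change -0.67, SE 0.42, edgeR adjusted p = 0.556), with overlap. None of these precursors or arms passed the test. Among arms, miR-741-5p had 3.29, 17.9 and 8.23 in F2 Con, against 71.9, 36.2 and 32.9 in F1 Con, with no overlap (log2 fold change -2.26, SE 0.86, edgeR adjusted p = 0.416). miR-742-3p had 5.42, 4.55 and 3.27 in F2 Con, against 19.9, 12.98 and 5.33 in F1 Con, with overlap (log2 fold change -1.53, SE 0.59, edgeR adjusted p = 0.416).

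Over the 6 groups together, miR-871 was the only member for which edgeR found a difference, at an adjusted p of 0.0287. It called 3.04% of all 461 precursors, while DESeq2 called 6 members and 29.1% of all. The miR-871 call was lost without F0 NHS replicate 1 (0.0550) and without F0 Con replicate 3 (0.0562). Per arm edgeR called 0 of 35, with 3 at an unadjusted p under 0.05, and 0.0% of 735, with 111; DESeq2 called 4, against 14.0% of all arms.

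Other miRNAs of male germ cells differed between generations too. miR-34b and miR-34c, which act in meiotic and haploid germ cells and in ciliated cells, rose in F1 Con over F0 Con, miR-34b by 2.55 (SE 0.50) and miR-34c by 2.30 (SE 0.42) in log2 terms (edgeR adjusted p = 0.0136 for both). In F2 Con over F0 Con they rose by 2.93 (SE 0.51, edgeR adjusted p = 0.00872) and 2.31 (SE 0.42, edgeR adjusted p = 0.00964). The third tested precursor of that list, miR-449a, lay at 1.63 (SE 0.75) and 0.04 (SE 0.73) and was not called; miR-449b and miR-449c did not pass the filter. Of 23 tested precursors of other X-linked miRNAs, edgeR called 0 higher and 2 lower in each of these comparisons, with medians of -0.40 for F1 Con and -0.73 for F2 Con.

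The summed share of the germ cell list was 6.28% to 10.4% of miRNA reads in F1 Con and 5.77% to 10.9% in F2 Con, against 0.990% to 1.37% in F0 Con. In F0 NHS that share was 1.29% to 5.13%. The smooth muscle list took 3.43% to 7.26% in F1 Con and 4.08% to 9.20% in F2 Con, against 10.9% to 41.8% in F0 Con. The epithelium list took 3.14% to 6.13% in F1 Con and 2.86% to 3.08% in F2 Con, against 4.03% to 5.56% in F0 Con. The germ cell share, the smooth muscle share and the miRNA share of reads separated both later Con groups from F0 Con. The epithelium share overlapped between F1 Con and F0 Con and was lower without overlap in F2 Con. The part of these shares in the superfamily's difference between generations was not tested.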

How the data were processed

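Small RNA of mouse sperm was measured in 18 libraries, and the known miRNAs of 16 were used. Per the file headers, the authors deposited for each library a list of small RNAs with counts, whole numbers of reads, and TPM values. The deposited TPM is the count per 1000000 reads of the library with no length term, which held for 100% of entries within 0.006 TPM plus 1 part in 1000000 of the value. In F1 NHS replicate 2 and F2 NHS replicates 2 and 3 the lists end after the known miRNAs. They hold 42.3%, 35.7% and 40.3% of the reads. Totals of these libraries were derived from the count and TPM of the largest entry. The match of counts to TPM is therefore no separate check of those totals. The submitters' processing notes name mm10; the aligner and counter were not given in the sources used here, so how reads of identical sequences were assigned is unknown.

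Members and lists were chosen with earlier results of these data known. Arms were tested singly and summed per precursor with edgeR 4.0.16 (R 4.3.3): quasi-likelihood test, 6 group means, TMM on library totals, at least 1 CPM in at least 3 libraries, two-sided, Benjamini-Hochberg adjustment over all 735 arms or 461 precursors, threshold 0.05. A log2 fold change is the first named group over the second, with its SE. DESeq2 1.42.0 was run beside it. The script was tested on simulated data.

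Named members were the 8 arms of highest mean TPM, the 5 precursors of highest share, the 3 of smallest unadjusted p in each NHS (F0, F2) or Con comparison, and all past the threshold. Members named outside this rule are those listed by groups that do not overlap, by their place in the cluster, and miR-743a-3p, miR-470-3p and F1 values, chosen after their values were seen. The split of libraries by the tRNA-Ala hairpin and the sums over names of 1 mature sequence were chosen after seeing the data. Library totals were 18072900 to 29430555 reads; without molecular identifiers, PCR reads are not independent, so intervals cover counting error only. Alternatives were other scalings, no filter, a block, fewer groups and leaving out each library.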

Additional observations from a re-analysis of the deposited data

How the results depend on the processing

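No alternative gave edgeR a member call in an NHS comparison. DESeq2 called 1 member arm in F2 NHS over F2 Con, 6 in F1 Con over F0 Con, 6 in F2 Con over F0 Con and 4 over the 6 groups; with no filter edgeR called 2 over the 6 groups. For member precursors in F1 Con over F0 Con, DESeq2 called 5, and edgeR called 1 in each of 5 settings: library totals, no filter, only the groups compared, a term for the tRNA-Ala sets, and the libraries low in that hairpin alone. In F2 Con over F0 Con, DESeq2 called 5, edgeR with DESeq2's size factors called 2, and edgeR called 0 with library totals or with the low libraries alone. Over the 6 groups DESeq2 called 6, and those same 2 settings gave 0. Among all precursors, the 42 calls of F1 Con became 103 with library totals. The 47 of F2 Con became 1 in the low libraries. The 14 over the 6 groups became 64 with library totals, 59 with no filter, 39 with the tRNA-Ala term, 9 with the block and 1 in the low libraries. Leaving out 1 library at a time gave 0 to 3 member precursors in F1 Con over F0 Con, 0 to 3 in F2 Con over F0 Con and 0 to 2 over the 6 groups. Among all precursors it gave 6 to 52 calls in F1 Con over F0 Con (lowest without F0 Con replicate 2, highest without F0 NHS replicate 3), 3 to 60 in F2 Con over F0 Con (lowest without F2 Con replicate 1, highest without F0 NHS replicate 3 or F2 NHS replicate 1) and 0 to 39 over the 6 groups. As a share of all reads, the superfamily ratio turned to 1.38 for F1 NHS over F1 Con and to 1.22 for F2 Con over F1 Con.

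Some members changed sign. In F0 NHS over F0 Con, miR-471-3p had a log2 fold change of -0.054 with DESeq2, -0.054 with its size factors in edgeR, -0.18 with library totals and -0.075 with no filter. miR-465b-3p was at 0.025 with the tRNA-Ala term, miR-871-5p at 0.061 with library totals, and miR-471 at 0.093 in the low libraries. In F2 NHS over F2 Con, miR-871-3p was at 0.27 with library totals, 0.075 with no filter and 1.79 in the low libraries. The cause was not tested. Leaving out 1 library at a time, F0 values spanned -0.70 to 1.73 for miR-465a-3p, -1.11 to 0.59 for miR-465b, -1.35 to 0.59 for miR-465b-3p, -7.24 to 0.61 for miR-465b-5p (-5.47 with all libraries), -0.47 to 0.42 for miR-465c, -1.07 to 1.46 for miR-465c-3p, -0.69 to 0.58 for miR-465c-5p, -0.41 to 0.43 for miR-471, -0.60 to 0.30 for miR-471-3p, -0.47 to 0.61 for miR-871, -0.61 to 0.50 for miR-871-3p and -0.70 to 0.42 for miR-871-5p. The F2 value of miR-871-3p spanned -0.42 to 0.52.

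The labels do not say whether replicate numbers pair the libraries. Deviations of same-numbered NHS and Con libraries correlated over 6 pairs at -0.509 to 0.307 per precursor, 3 of them over 0.1. Per arm they correlated at -0.219 to 0.160, 2 of them over 0.1. These few values cannot decide the question, because deviations from a group's own mean depend on each other. With the replicate block, edgeR called 3 member precursors in F2 Con over F0 Con. Under the block F0 values turned to 0.21 for miR-465c-3p, 0.19 for miR-871-5p and 0.12 for miR-471, and the F2 value of miR-871-3p to 0.035. Libraries correlated best with their own number in 2 of 6 pairs per precursor and 3 of 6 per arm. Depth limits the rare members: miR-547 and miR-201 averaged 1.71 and 4.77 TPM. It also limits miR-465b-5p and miR-465d-3p in some libraries, where they fell to 0.144 and 0 TPM.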
